A study of Homo sapiens with 4 samples.

Results

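The metalloprotease, ADAM and TIMP genes were examined in Huh1 and Huh7, both established cell lines of human hepatocellular carcinoma, after silencing of CDCA8. Members were taken by gene symbol, which had to name a matrix metalloprotease (MMP), an ADAM, an ADAMTS, an ADAMTS-like (ADAMTSL) or a tissue inhibitor of metalloproteases (TIMP) gene. This rule gave 70 of the 18398 transcript rows, with 22 MMP, 20 ADAM, 19 ADAMTS, 5 ADAMTSL and 4 TIMP genes. CDCA8 encodes borealin, a subunit of the chromosomal passenger complex that acts in mitosis. Huh1 or Huh7 cells received 15 nM of an siRNA against CDCA8 (CDCA8siRNA) or of a negative control siRNA (NCsiRNA), and total RNA was sequenced after 48 h. Each of the 4 combinations of cell line and siRNA is 1 library, so no condition has a replicate. Levels are given in RPKM, read numbers divided by transcript length and library depth, which allows genes of different length to be compared.

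MMPs are zinc-dependent proteases that cut collagens, proteoglycans and other matrix proteins, and the membrane-type members act at the cell surface. ADAMs are membrane proteases that release the outer parts of surface proteins such as growth factors, cytokine receptors and Notch, although several lack a working active site. ADAMTS enzymes are secreted and process procollagens and proteoglycans, the ADAMTSL proteins resemble them without a protease domain, and TIMPs block the active site of these enzymes. In liver, matrix turnover of this kind is best known from hepatic stellate cells and fibrosis, and several of the enzymes have been studied in tumour invasion.

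The RPKM constants corresponded to 12197606 to 13384836 reads per library, and 2568 to 3169 rows were listed at 0 in each. CDCA8 itself had 24.1 RPKM with NCsiRNA and 5.86 with CDCA8siRNA in Huh1, against 51.5 and 7.36 RPKM in Huh7, and fell by 2.26 on the log2 scale (limma adjusted p = 0.000542). Hepatocyte markers reached 1 RPKM in every library, 10 of 10 of them. Their summed level was 5407 and 4183 RPKM in Huh1 with NCsiRNA and CDCA8siRNA, and 3354 and 2366 RPKM in Huh7. ALB alone gave 3447 and 2684 RPKM in Huh1, and 1166 and 721 RPKM in Huh7. Unlike the sum, AFP, TTR and FGB were higher in Huh7 than in Huh1 with each siRNA. AFP had 24.8 and 27.5 RPKM in Huh1 and 865 and 715 RPKM in Huh7. TTR had 5.10 and 4.49 RPKM in Huh1 and 29.3 and 48.5 RPKM in Huh7. Of 7 fibroblast or stellate markers, 1 reached 1 RPKM in each Huh1 library and 4 in each Huh7 library. These 7 summed to 12.1 and 25.9 RPKM in Huh1 and to 284 and 377 RPKM in Huh7, mostly from LUM, COL1A1 and COL1A2, while THY1 stayed at or near 0. The 6 leukocyte markers summed to 1.16 and 2.31 RPKM in Huh1 and to 11.4 and 24.2 RPKM in Huh7, with LYZ as the highest of them in every library. The 3 endothelial markers with a row were at or near 0 throughout. These sums moved with the cell line and with the siRNA, and their part in the results was not tested. Each library was made from 1 cell line and not from a tissue of several cell types, so the markers describe expression in that line. In such bulk libraries, a level in all cells and a level in some of them cannot be told apart.

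At least 1 RPKM in at least 1 library was reached by 31 of the 70 genes, or 44.3%, against 66.0% of all rows. All 4 TIMP genes reached this level, as did 10 of 22 MMP, 9 of 20 ADAM, 5 of 19 ADAMTS and 3 of 5 ADAMTSL genes. Another 34 genes had some signal under 1 RPKM, and MMP8, MMP9, MMP26, MMP27 and ADAM30 were listed at 0 RPKM in every library. Both gelatinases were thus at the bottom of the range, since MMP2 did not exceed 0.0215 RPKM. The same holds for the classical collagenases, where MMP1 reached at most 0.0727 RPKM and MMP13 0.0302 RPKM. Just inside the threshold were ADAMTS3 with a highest level of 1.01 RPKM and MMP23B with 1.05 RPKM. Just outside it were ADAMTS10 with 0.757, ADAMTS16 with 0.754 and ADAM32 with 0.688 RPKM.

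The remaining genes under 1 RPKM were spread over all families but the TIMPs. Among the ADAMTS genes, ADAMTS5, ADAMTS15, ADAMTS20, ADAMTS13 and ADAMTS18 had highest levels between 0.250 and 0.558 RPKM, and ADAMTS2, ADAMTS4, ADAMTS7, ADAMTS8, ADAMTS14, ADAMTS17 and ADAMTS19 stayed at or under 0.104 RPKM. Among the ADAMs, ADAM33, ADAM18, ADAM21 and ADAM20 had highest levels between 0.117 and 0.428 RPKM, and ADAM2, ADAM7, ADAM11, ADAM12 and ADAM29 stayed at or under 0.0679 RPKM. MMP21 reached 0.214 RPKM, and MMP3, MMP20, MMP25 and MMP28 stayed at or under 0.0834 RPKM. ADAMTSL1 and ADAMTSL2 stayed at or under 0.0219 RPKM.

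**Figure D1:**
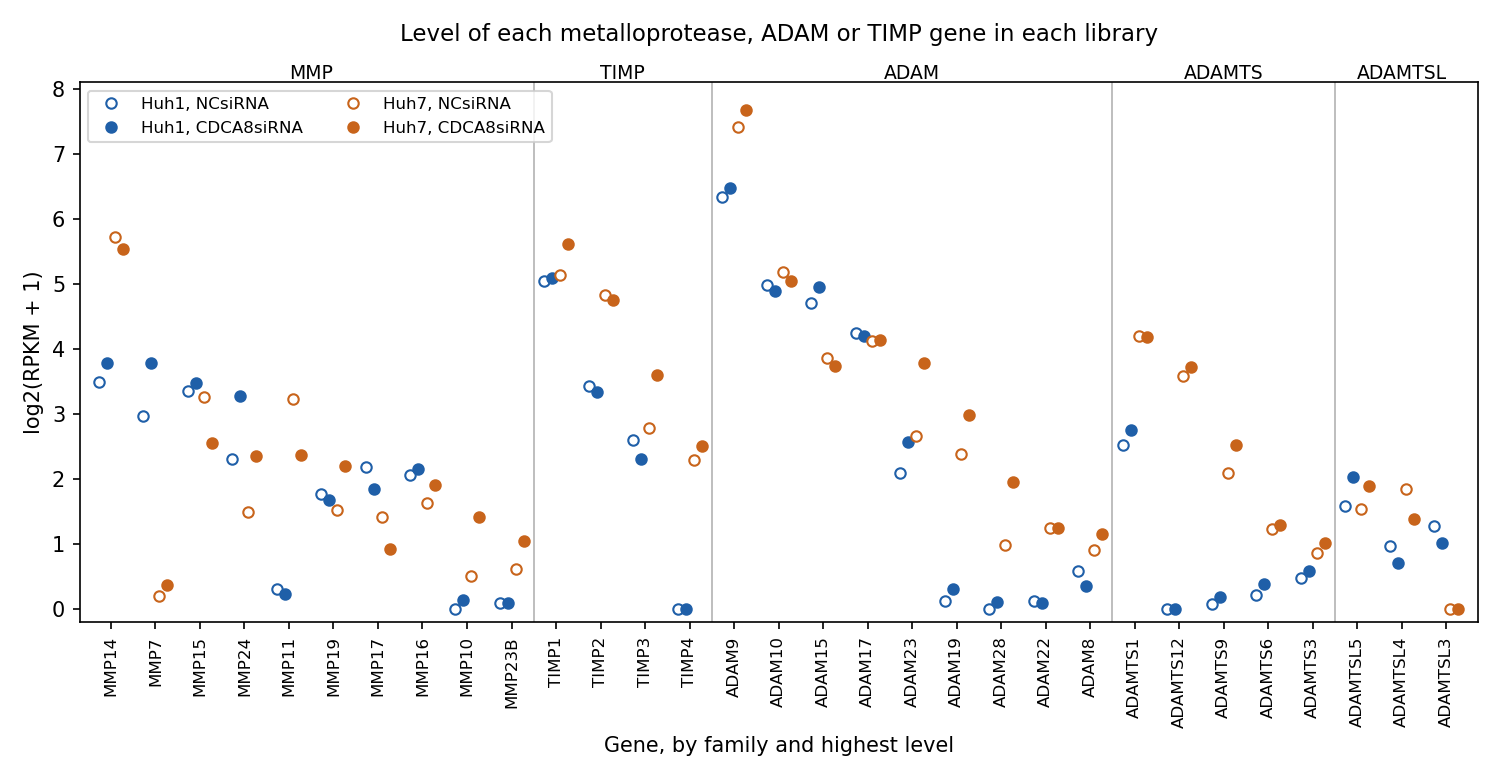
Level of each of the 31 genes that reached 1 RPKM in any library, as log2(RPKM + 1) on the y axis, with the genes on the x axis by family and highest level. Each point is 1 library, blue for Huh1 and orange for Huh7, open for NCsiRNA and filled for CDCA8siRNA. ADAM9 is the highest gene, with up to 203 RPKM, and TIMP4 and ADAMTS12 sit at 0 in both Huh1 libraries.

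The promoter sequences show how differently built these genes are at their start. The stretches of 4 genes are printed, taken from the RefSeq promoter table on GRCh38.p14. They belong to the secreted proteases MMP7 and MMP10, which lie in the same protease gene cluster on chromosome 11, and to MMP24 and ADAM23, the genes called for the siRNA among the 16 that could be tested with limma. Each stretch runs 5′ to 3′ on the gene's strand from 140 to 41 bases before the annotated start. Capitals mark CG pairs and, in MMP7, also the AP-1 motif TGAGTCA.
MMP7, chr11:102530788-102530887, minus strand: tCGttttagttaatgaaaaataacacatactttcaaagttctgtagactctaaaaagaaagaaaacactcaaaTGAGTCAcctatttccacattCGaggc
MMP10, chr11:102780669-102780768, minus strand: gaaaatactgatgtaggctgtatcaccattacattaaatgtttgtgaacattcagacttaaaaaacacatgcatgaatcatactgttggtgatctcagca
MMP24, chr20:35226550-35226649, plus strand: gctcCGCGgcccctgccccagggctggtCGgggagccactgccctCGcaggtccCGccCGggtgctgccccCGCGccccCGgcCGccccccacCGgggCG
ADAM23, chr2:206443392-206443491, plus strand: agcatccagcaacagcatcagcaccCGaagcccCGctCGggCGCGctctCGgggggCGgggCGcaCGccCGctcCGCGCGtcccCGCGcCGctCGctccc
The MMP10 stretch held 0 CG pairs and the MMP7 stretch 2, against 12 in MMP24 and 17 in ADAM23.

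Over the 250 bases before the start, GC content was 33.6% in MMP7 and 34.4% in MMP10, and 77.6% in MMP24 and 73.6% in ADAM23. A promoter was matched for 44 of the 70 genes. The CpG ratio, the number of CG pairs over the number that the base composition predicts, had a median of 0.710 in them. It was at least 0.6 in 15 of the 23 genes that reached 1 RPKM, or 65.2%, and in 11 of the 21 that did not, or 52.4%. Among all rows with a promoter, the same shares were 79.3% of 8950 and 33.0% of 4152. MMP14 and TIMP1 were highly expressed with CpG ratios of only 0.348 and 0.476, whereas ADAM10 had 1.02. The AP-1 motif was searched only as TGACTCA, or TGAGTCA on the other strand. In this form it was found in MMP7 alone, from 67 to 61 bases before the start. That is 2.27% of the 44 genes, against 4.16% of all 27305 promoters in the table and 3.14% of the 13102 that match a row of the data. Among genes that reached 1 RPKM the share was 4.35% of 23, against 2.56% of all such rows. Genes without a matched promoter, among them MMP1, MMP2, MMP3, MMP9, MMP13 and MMP19, were not searched for any motif. The cAMP response motif TGACGTCA, which reads the same on both strands, was in 0 of the 44, in 1.77% of all promoters and in 2.37% of those that match a row. The TCF/LEF motif was searched only as ATCAAAG, or CTTTGAT on the other strand. This form was in 0 of the 44, in 2.28% of all promoters and in 1.69% of those that match a row. Other forms of the 3 motifs were not searched, such as the ttcaaag within the printed MMP7 stretch. The printed MMP10 stretch holds tgaatca, which resembles the AP-1 motif and lies as far from the start as that of MMP7. The AP-1 and cAMP response motifs resemble each other, but none of the 3 contains another, and a match is a description of the window only.

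**Figure D2:**
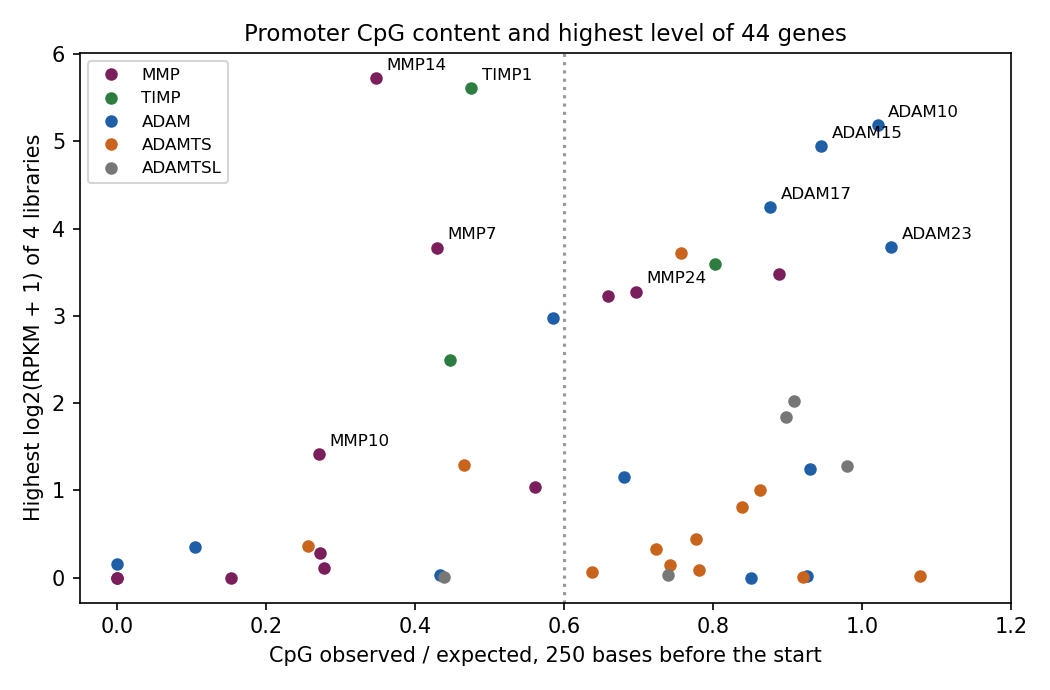
Highest level of each of the 44 genes with a matched promoter, as log2(RPKM + 1) on the y axis, against the CpG ratio of the 250 bases before the start on the x axis. Each point is 1 gene, coloured by family, and the dotted line is a ratio of 0.6. MMP14 and TIMP1 stand high at ratios of 0.348 and 0.476, and ADAM10, ADAM15, ADAM17 and ADAM23 stand to the right of the line.

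The membrane-type MMPs made up most of the MMP signal, with 75.8% and 71.0% of the summed MMP level in Huh1 with NCsiRNA and CDCA8siRNA, and 85.0% and 84.1% in Huh7. MMP14, a collagenase that also activates the precursor of MMP2, had 10.2 RPKM in Huh1 with NCsiRNA and 12.8 RPKM with CDCA8siRNA. In Huh7 it had 51.9 RPKM with NCsiRNA and 45.5 RPKM with CDCA8siRNA. Both Huh7 libraries were thus above both Huh1 libraries, and MMP14 alone gave 78.6% and 78.3% of the membrane-type sum in Huh7, against 34.0% and 33.9% in Huh1. MMP15 had 9.24 and 10.1 RPKM in Huh1 with NCsiRNA and CDCA8siRNA, and 8.55 and 4.86 RPKM in Huh7. Its lowest library was Huh7 with CDCA8siRNA. MMP16 had 3.17 and 3.42 RPKM in Huh1 and 2.10 and 2.73 RPKM in Huh7, in the same order of siRNAs. MMP17, which is held to the membrane by a lipid anchor, had 3.54 and 2.59 RPKM in Huh1 and 1.67 and 0.880 RPKM in Huh7. For these genes both Huh1 libraries stood above both Huh7 libraries.

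MMP24, a membrane-type protease known to cut N-cadherin in neural cells, had 3.91 RPKM in Huh1 with NCsiRNA and 8.69 RPKM with CDCA8siRNA. In Huh7 it had 1.8 RPKM with NCsiRNA and 4.10 RPKM with CDCA8siRNA. In each cell line the CDCA8siRNA library was the higher. The gene lies at chr20:35226654-35277000 on GRCh38, and 18.1% of its transcript overlaps exons of MMP24OS on the opposite strand. The library kit does not mark strand, so reads of the pair cannot be told apart there.

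Outside the membrane-type group, the MMPs were split between the cell lines. MMP7 (matrilysin), a small secreted protease at chr11:102520508-102530753, had 6.81 and 12.7 RPKM in Huh1 with NCsiRNA and CDCA8siRNA, but 0.147 and 0.291 RPKM in Huh7. MMP11, a stromelysin activated inside the cell by furin, had the opposite distribution with 0.235 and 0.168 RPKM in Huh1 and 8.39 and 4.15 RPKM in Huh7. Of the chromosome 11 protease cluster, which also holds MMP1, MMP3, MMP8, MMP13, MMP20 and MMP27, only MMP7 in Huh1 and MMP10 in Huh7 reached 1 RPKM. The stromelysin MMP10 was listed at 0 and 0.101 RPKM in Huh1 and had 0.419 and 1.67 RPKM in Huh7. MMP19 had 2.40 and 2.20 RPKM in Huh1 and 1.87 and 3.59 RPKM in Huh7. MMP19 was therefore of similar level in 3 libraries and highest in Huh7 with CDCA8siRNA. MMP23B, which has a near-identical neighbouring copy and is uncertain for that reason, had 0.0603 and 0.0611 RPKM in Huh1 and 0.529 and 1.05 RPKM in Huh7.

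Among the inhibitors, TIMP1 had 32.0 and 33.0 RPKM in Huh1 with NCsiRNA and CDCA8siRNA, and 33.9 and 47.8 RPKM in Huh7. TIMP2, which takes part in the activation of MMP2 by MMP14, had 9.77 and 9.04 RPKM in Huh1 and 27.3 and 26.0 RPKM in Huh7. TIMP1 was thus level in 3 libraries and higher in the fourth, whereas TIMP2 followed the cell line. TIMP3, the matrix-bound inhibitor that also blocks ADAM17, had 5.03 and 3.95 RPKM in Huh1 and 5.84 and 11.1 RPKM in Huh7. TIMP4 was listed at 0 RPKM in both Huh1 libraries and had 3.87 and 4.64 RPKM in Huh7. TIMP1, TIMP3 and TIMP4 lie inside the synapsin genes SYN1, SYN3 and SYN2 on the opposite strand. SYN1 stayed at or under 0.0956 RPKM and SYN3 at or under 0.415 RPKM. Exons of SYN2 overlap 10.3% of the TIMP4 transcript. No transcript row carries the symbol SYN2, so its level could not be given. The summed TIMP level was 46.8 and 46.0 RPKM in Huh1 and 71.0 and 89.5 RPKM in Huh7, against summed MMP levels of 39.7 and 53.0 RPKM and of 77.7 and 69.1 RPKM.

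The ADAMs held the highest levels of all 5 families. ADAM9, a widely expressed sheddase, had 79.7 and 87.4 RPKM in Huh1 with NCsiRNA and CDCA8siRNA, and 169 and 203 RPKM in Huh7. It gave 50.6% to 69.9% of the summed ADAM level in the 4 libraries. ADAM10, which cuts Notch and E-cadherin, had 30.7 and 28.5 RPKM in Huh1 and 35.4 and 31.9 RPKM in Huh7. ADAM17, which releases TNF and ligands of the EGF receptor, had 17.9 and 17.3 RPKM in Huh1 and 16.4 and 16.5 RPKM in Huh7. ADAM10 and ADAM17 thus differed little between the libraries, although 30.1% of the ADAM17 transcript overlaps exons of IAH1 on the opposite strand, which had 13.7 to 27.8 RPKM. ADAM15 had 25.1 and 29.7 RPKM in Huh1 and 13.4 and 12.3 RPKM in Huh7, and was higher in Huh1.

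ADAM23, which has no protease activity and binds LGI proteins and integrins, had 3.26 RPKM in Huh1 with NCsiRNA and 4.95 RPKM with CDCA8siRNA. In Huh7 it had 5.31 RPKM with NCsiRNA and 12.8 RPKM with CDCA8siRNA. The gene lies at chr2:206443539-206621130, and its level was higher with CDCA8siRNA in each cell line. ADAM19, a sheddase of neuregulin, had 0.0907 and 0.239 RPKM in Huh1 and 4.23 and 6.89 RPKM in Huh7. ADAM28 was listed at 0 and 0.0706 RPKM in Huh1 and had 0.968 and 2.86 RPKM in Huh7. Both were nearly absent from Huh1. ADAM22, another member without protease activity, had 0.0891 and 0.0657 RPKM in Huh1 and 1.36 RPKM in each Huh7 library. ADAM8 had 0.501 and 0.274 RPKM in Huh1 and 0.863 and 1.22 RPKM in Huh7.

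The ADAMTS genes were mostly a Huh7 signal, with a summed level of 6.80 and 7.67 RPKM in Huh1 and 36.5 and 39.5 RPKM in Huh7. ADAMTS1, which cuts aggrecan and versican, had 4.72 and 5.74 RPKM in Huh1 with NCsiRNA and CDCA8siRNA, and 17.3 and 17 RPKM in Huh7. ADAMTS12 was listed at 0 RPKM in both Huh1 libraries and had 10.9 and 12.2 RPKM in Huh7. ADAMTS12 and ADAMTS1 together carried most of the family sum in Huh7. ADAMTS9, another versican-cutting enzyme, had 0.0562 and 0.130 RPKM in Huh1 and 3.23 and 4.72 RPKM in Huh7. ADAMTS6 had 0.154 and 0.302 RPKM in Huh1 and 1.33 and 1.45 RPKM in Huh7. ADAMTS3, a procollagen processing enzyme, had 0.385 and 0.495 RPKM in Huh1 and 0.817 and 1.01 RPKM in Huh7. In all 5 genes both Huh7 libraries were above both Huh1 libraries.

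The ADAMTS-like genes differed from each other in their distribution. ADAMTSL5 had 2.00 and 3.08 RPKM in Huh1 and 1.90 and 2.69 RPKM in Huh7, and was higher with CDCA8siRNA in each. ADAMTSL4, known for its role in fibrillin microfibrils, had 0.943 and 0.636 RPKM in Huh1 and 2.60 and 1.59 RPKM in Huh7. ADAMTSL4 was lower with CDCA8siRNA in each cell line, and 17.2% of its transcript overlaps the antisense gene ADAMTSL4-AS1. ADAMTSL3 had 1.43 and 1.02 RPKM in Huh1 and was listed at 0 RPKM in both Huh7 libraries.

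The first comparison asked which of these genes differed between the cell lines. At least 1 RPKM was reached in Huh7 but not in Huh1 by 13 of the 31 genes, or 41.9%, against 9.94% of all rows that reached it. The reverse held for 2 genes, MMP7 and ADAMTSL3, or 6.45%, against 4.80% of all rows. These counts show a threshold crossed, not presence against absence. Among the 13, ADAMTSL4 had up to 0.943 RPKM in Huh1, and the highest levels of ADAMTS3 and MMP23B in Huh7 were only 1.01 and 1.05 RPKM. The level could be reached with either siRNA. ADAM8, ADAM28, ADAMTS3, MMP10 and MMP23B reached it in Huh7 with CDCA8siRNA only, and had 0.419 to 0.968 RPKM there with NCsiRNA. A difference in log2(RPKM + 1) of at least 2-fold was then counted, without a test, since each side is 1 library. With NCsiRNA, 11 of 26 genes were at least 2-fold higher in Huh7 and 2 were lower, against 17% and 10.2% of all genes. With CDCA8siRNA, 14 of 31 were higher and 3 lower, against 17.4% and 10.1% of all genes. The median difference was 0.38 with NCsiRNA and 0.91 with CDCA8siRNA, against 0.14 for all genes in each case. A gene that is high in 1 line alone enters these counts because it is high there. The summed fibroblast or stellate markers differed between the same libraries in the same direction, and their part in this was not tested.

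**Figure D3:**
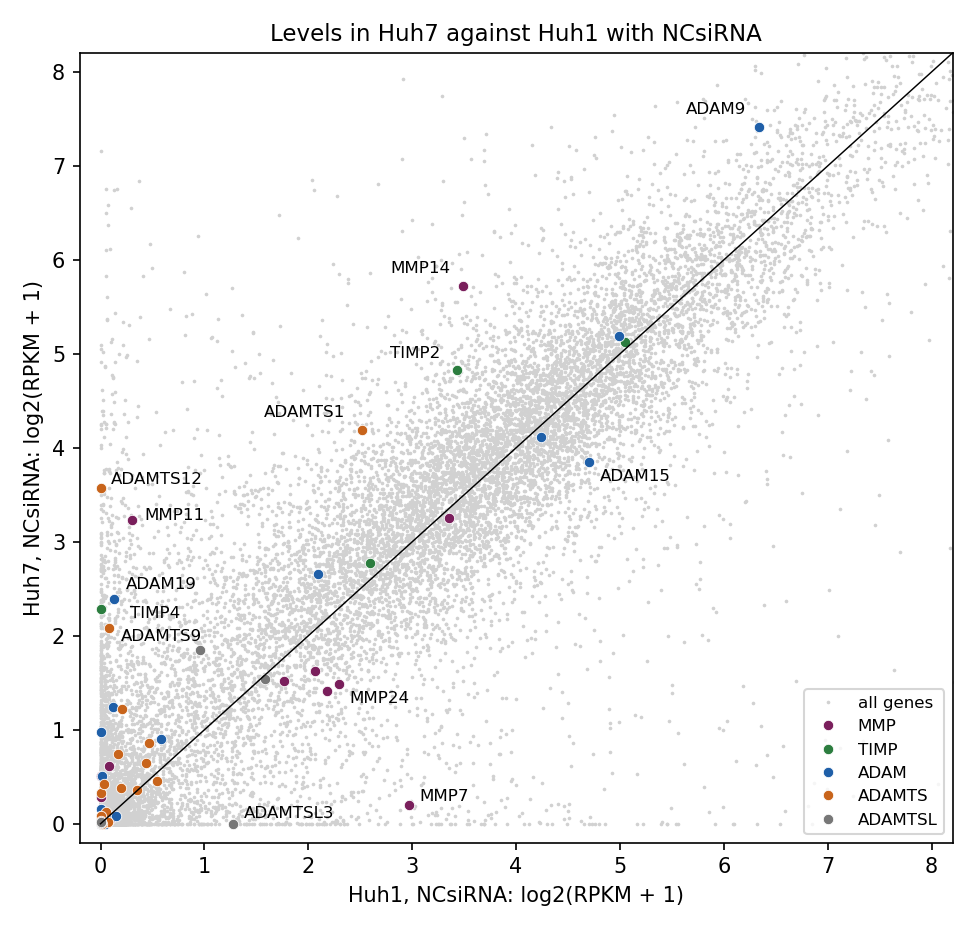
Level in Huh7 against level in Huh1, both with NCsiRNA and as log2(RPKM + 1), with the line of equal levels. Coloured points are the metalloprotease, ADAM and TIMP genes by family, and grey points are all genes, of which the highest lie outside the axes. MMP14 had 51.9 RPKM in Huh7 and 10.2 in Huh1, and MMP7 had 0.147 and 6.81 RPKM.

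Where a gene reached 1 RPKM in both cell lines, the difference was tested with limma on all 4 libraries, with the siRNA as a covariate. Of the 70 genes, 16 could be tested, of which 7 were higher and 5 lower in Huh7 at an adjusted p under 0.05. Over all 10357 genes tested, 39.1% were higher and 28.7% lower, so these counts are near the background. MMP14 was higher in Huh7 by 2.00 on the log2 scale (SE 0.124, limma adjusted p = 8.26e-07). The plain ratio of its RPKM in Huh7 over Huh1 was 5.08 with NCsiRNA, with a 95% counting interval from 4.61 to 5.59. ADAMTS1 was higher by 1.55, TIMP2 by 1.41, ADAM9 by 1.14, ADAM23 by 0.89, TIMP3 by 0.74 and TIMP1 by 0.30 (limma adjusted p between 1.93e-06 and 0.0428). ADAM15 was the gene with the strongest difference in the other direction, with a log2 difference of -1.03 (SE 0.114, limma adjusted p = 3.43e-05). MMP24 differed by -0.87, MMP17 by -0.85, MMP15 by -0.51 and MMP16 by -0.34, the last with a limma adjusted p of 0.0499. ADAM10, ADAM17, MMP19 and ADAMTSL5 did not pass, with log2 differences of 0.18, -0.09, 0.14 and -0.10. For TIMP1, TIMP3 and MMP15 the difference came mainly from the CDCA8siRNA libraries. With NCsiRNA their plain ratios of Huh7 over Huh1 were 1.06 (95% counting interval 0.916 to 1.23), 1.16 (0.991 to 1.36) and 0.924 (0.813 to 1.05). With CDCA8siRNA these ratios were 1.45, 2.81 and 0.480.

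The genes outside this test were mostly near 0 in Huh1. ADAM19 had a ratio of Huh7 over Huh1 with NCsiRNA of 46.7 (95% counting interval 23.0 to 107), ADAMTS9 of 57.5 (24.9 to 151) and MMP11 of 35.8 (17.5 to 92.2). In these 3 genes the Huh1 value rested on only about 6 to 8 reads. MMP7 had a ratio of 0.0215 (0.00255 to 0.0789), with about 2 reads in Huh7 and 103 in Huh1. No ratio is given for TIMP4, ADAMTS12 and ADAMTSL3, which were listed at 0 in 1 cell line. These intervals cover counting error only and hold no variation between cultures.

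The second comparison asked how these genes differed with CDCA8siRNA. Only 1 siRNA sequence against CDCA8 was used for these libraries. Effects of CDCA8 loss and other effects of that sequence cannot be told apart. In limma over both cell lines, with the cell line as a covariate, MMP24 and ADAM23 rose and 0 of the 16 genes fell. Of all 10357 genes, 6.03% rose and 4.21% fell. This fit has 1 residual degree of freedom, and limma added a prior of 8.29 degrees of freedom from the variances of all genes. Its p-values therefore rest mainly on that shared variance and only in part on how alike a gene changed in the cell lines. They tell nothing of repeat transfections. At an unadjusted p under 0.05 there were 6 of the 16 genes, or 37.5%, against 26.0% of all genes tested. MMP24 rose by 0.92 on the log2 scale (SE 0.125, limma adjusted p = 0.00373). Its plain RPKM ratio of CDCA8siRNA over NCsiRNA was 2.22 in Huh1 (95% counting interval 1.90 to 2.61) and 2.28 in Huh7 (1.78 to 2.92). MMP24 and ADAMTSL4, like the related genes EREG and MICB, are among genes that the study singled out in these same libraries, so their direction is not independent evidence.

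ADAM23 rose by 0.81 on the log2 scale (SE 0.157, limma adjusted p = 0.0155). Its ratio was 1.52 in Huh1 (1.30 to 1.77) and 2.41 in Huh7 (2.15 to 2.71), and these counting intervals do not overlap. Both calls were lost when genes of any level were tested (limma adjusted p = 0.445 for MMP24 and 0.457 for ADAM23) and when the cell line was left out of the model (limma adjusted p = 1.00 for each). MMP17 had a log2 change of -0.42 (limma adjusted p = 0.0990) and ADAMTSL5 one of 0.39 (0.105). ADAM9 had 0.20 (limma adjusted p = 0.167) and TIMP1 0.26 (0.190). The median change of the 16 genes was 0.14, with 11 positive, against 0.03 for all genes tested. The remaining 10 genes, among them ADAM10 with -0.12, ADAM17 with -0.01 and TIMP2 with -0.09, had an unadjusted p above 0.05.

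Within each cell line the knockdown was described at 2-fold on log2(RPKM + 1). In Huh1, 0 of 18 genes were higher and 0 lower, against 0.32% and 0.174% of all genes. In Huh7, 1 of 29 genes was higher, ADAM23 with a log2 difference of 1.13, and 0 were lower, against 0.873% and 0.7% of all genes. The difference was positive for 11 of 18 genes in Huh1 and for 19 of 29 in Huh7, or 61.1% and 65.5%, against 55.1% and 54.5% of all genes. The added 1 RPKM reduces the change of low genes. On the plain ratio, Huh7 had ADAM28 at 2.96 (95% counting interval 2.30 to 3.84), MMP10 at 3.98 (1.88 to 9.39) and MMP11 at 0.495 (0.395 to 0.623). MMP10 rested on about 9 and 36 reads. In Huh1, MMP7 had a plain ratio of 1.87 (1.46 to 2.39).

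**Figure D4:**
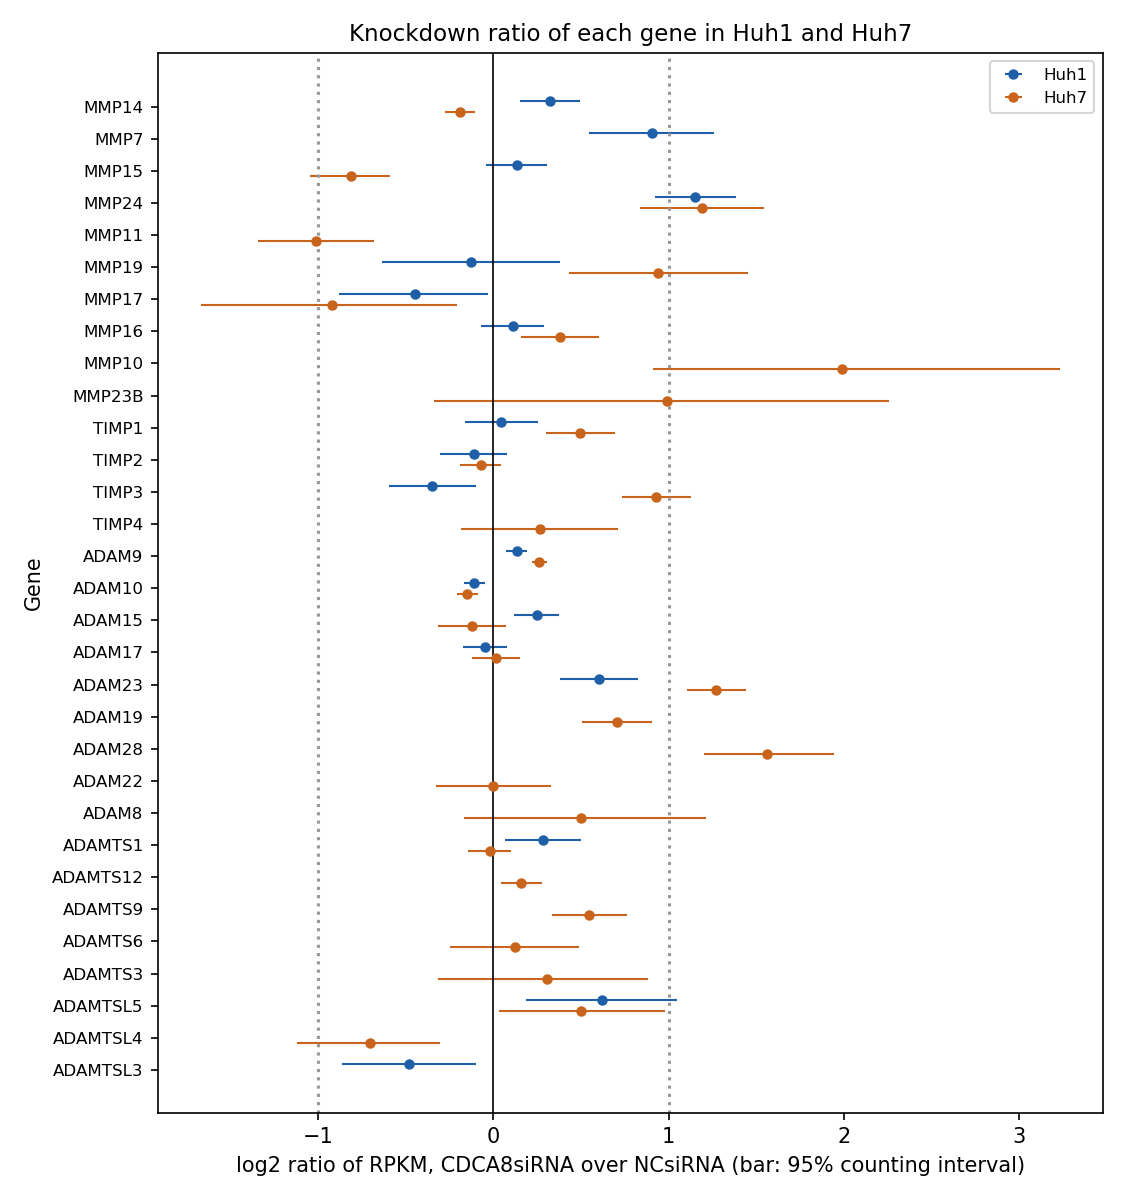
log2 ratio of RPKM with CDCA8siRNA over NCsiRNA on the x axis for each gene on the y axis, blue in Huh1 and orange in Huh7, shown where the gene reached 1 RPKM in that cell line. Bars are 95% counting intervals and dotted lines mark 2-fold. MMP24 lies near 2.2 in both cell lines as a plain ratio, and TIMP3 lies on opposite sides of no change, at 0.786 in Huh1 and 1.90 in Huh7.

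Several genes had knockdown ratios that were far apart in the cell lines. TIMP3 had a ratio of 0.786 in Huh1 (0.661 to 0.933) and of 1.90 in Huh7 (1.66 to 2.18). MMP14 had 1.25 in Huh1 (1.11 to 1.41) and 0.876 in Huh7 (0.826 to 0.930). Both genes went in opposite directions in the cell lines, with counting intervals on either side of no change. MMP15 had 1.10 in Huh1 (0.971 to 1.24) and 0.569 in Huh7 (0.485 to 0.664). MMP19 had 0.915 in Huh1 (0.645 to 1.30) and 1.92 in Huh7 (1.35 to 2.74), and TIMP1 had 1.03 (0.895 to 1.19) and 1.41 (1.23 to 1.61). A difference between the cell lines could not be tested with 1 library per condition.

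Genes that act with the proteases were compared in the same limma fit. Of 7 tested partners of ADAM10 and ADAM17, which guide these enzymes to the surface, 1 rose, TSPAN17 by 0.44 (limma adjusted p = 0.0246), and 0 fell. Of 20 tested proteins known to be shed, 1 rose and 1 fell. EREG, the EGF receptor ligand epiregulin released by ADAM17, had 5.74 and 15.3 RPKM in Huh1 with NCsiRNA and CDCA8siRNA, and 13.6 and 45.5 RPKM in Huh7. EREG rose by 1.47 (SE 0.119, limma adjusted p = 0.000638). MICB, a ligand of the NKG2D receptor of lymphocytes that is shed from tumour cells, had 15.4 and 9.77 RPKM in Huh1 and 26.1 and 15.6 RPKM in Huh7. It fell by 0.66 on the log2 scale (SE 0.102, limma adjusted p = 0.00605). In limma, 0 of 6 tested genes of protease activation and inhibition, 0 of 3 of plasminogen activation and 0 of 3 matrix substrates changed, with 1 of each list at an unadjusted p under 0.05. The same unadjusted count was 5 of 7 for the ADAM10 and ADAM17 partners and 8 of 20 for the shed proteins, against 26.0% of all genes tested. The median change was 0.32 for the ADAM10 and ADAM17 partners and -0.05 for the shed proteins, against 0.03 for all genes tested.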

How the data were processed

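Total RNA of 4 libraries was prepared with an unstranded TruSeq RNA kit. The submitters' processing notes name CASAVA 1.8.2, TopHat2 2.0.9 and hg19. The authors deposited RPKM values, 1 per RefSeq transcript, without naming the unit, which was deduced from low values falling on multiples of 1 read. Approximate reads, 12197606 to 13384836 per library, were recovered with GENCODE 29 transcript lengths for 17768 of 18398 rows and for 68 of the 70 genes. The authors' lengths may differ, and only 31.4% to 34.3% of low values came within 0.05 of a whole read, so no count test was run and reads describe precision only, as exact 95% intervals of RPKM ratios that cover counting error. Gene positions are GENCODE 29 on GRCh38, another build than the files'.

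limma 3.58.1 in R 4.3.3 (lmFit, eBayes with trend) was fitted to log2(RPKM + 1) with cell line and siRNA as terms, over the 10357 genes that reached 1 RPKM in each cell line, with Benjamini-Hochberg adjustment over all of them. It was tested on simulated data. The study's own resampling ANOVA could not be repeated with 1 library per condition. Differences within pairs of libraries were called at 2-fold, with no test. Groups came from the labels, the dose and time from the study's methods, and no library was left out. Other steps used Python 3.11.15, pandas 2.3.3, numpy 2.4.6 and scipy 1.17.1.

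Every gene of the families that reached 1 RPKM in any library was given with its 4 values. From the lists of related genes, those with an adjusted p under 0.05 for the siRNA were named. The members and lists were chosen with earlier results of these data known. Alternatives were a pseudocount of 0.1 RPKM, no filter, a minimum of 5 RPKM, quantile normalization, upper quartile scaling, limma without trend or without the other term, another detection level, and plain ratios, the last chosen after seeing the data.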

Additional observations from a re-analysis of the deposited data

Results flagged for a closer look

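The knockdown difference of TIMP3 in log2(RPKM + 1) was 1.11 larger in Huh7 than in Huh1, where TIMP3 was lower with CDCA8siRNA. For MMP14, which was higher with CDCA8siRNA in Huh1 and lower in Huh7, the difference in Huh7 minus that in Huh1 was -0.48. Both were picked out because the cell lines moved in opposite directions, each beyond its counting interval. This contrast between Huh1 and Huh7 was not tested, since each condition is 1 library.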

How the results depend on the processing

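No replicate could be left out, and depth limits genes under about 1 RPKM, where a value rests on few reads. The labels give no replicate numbers, so the cell line was the only pairing. In the knockdown over both cell lines, the 2 genes that rose became 0 with no filter, with a minimum of 5 RPKM and with the cell line left out, and the 0 that fell became 1 (MMP17) under quantile normalization. MMP24 and ADAM23 do not reach 5 RPKM in both cell lines and were not tested at that minimum. Over the other alternatives the limma adjusted p ranged from 4.08e-05 to 1.00 for MMP24 and from 0.000280 to 1.00 for ADAM23. For the cell lines, the 7 higher genes became 11 with no filter and 4 without the siRNA term, and the 5 lower became 2 with a minimum of 5 RPKM and 2 without the siRNA term. At the minimum of 5 RPKM, MMP16, MMP17 and MMP24 were not tested for the cell line, and ADAM15 and MMP15 kept their calls. Within Huh1, the 0 higher genes became 1 with a pseudocount of 0.1 RPKM and 1 as plain ratios. Within Huh7, 1 higher became 4 under each of these, and 0 lower became 1 as plain ratios. Between the lines with NCsiRNA, 11 higher became 6 with a minimum of 5 RPKM, and 2 lower became 4 with a pseudocount of 0.1 RPKM, 1 with a minimum of 5 RPKM and 4 under quantile normalization. With CDCA8siRNA, 14 higher became 8 with a minimum of 5 RPKM, and 3 lower became 6 with a pseudocount of 0.1 RPKM, 6 under quantile normalization and 5 as plain ratios. Quantile normalization shifted the median difference of all genes between the lines by -0.11 with either siRNA. The 31 detected genes became 15 when 1 RPKM was required in all 4 libraries. Of the values for single genes, 398 kept their sign and call, 20 lost the call, 2 gained it and 2 moved by more than the counting interval. The sign changed in 4 that were not called: under quantile normalization in the cell line effect of MMP19, from 0.14 to -0.14, and in the Huh7 knockdown difference of ADAMTS6, from 0.07 to -0.01, and of ADAM17, near 0, and under upper quartile scaling in that of ADAM22, also near 0. TIMP1 lost its cell line call under 5 alternatives. MMP16 lost its own with a pseudocount of 0.1 RPKM, with no filter and without the siRNA term. ADAM23, TIMP3 and MMP15 lost theirs with no filter and without the siRNA term. ADAM15 lost its cell line call with no filter only, and MMP24 without the siRNA term only. The causes were not tested.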

Other observations

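Several related genes, named here after their values were seen, also differed between the cell lines. A2M, the broad protease inhibitor alpha-2-macroglobulin, had 1.40 and 1.06 RPKM in Huh1 with NCsiRNA and CDCA8siRNA, and 51.1 and 52.0 RPKM in Huh7. RECK, a membrane-anchored inhibitor of MMPs, had 0.178 and 0.159 RPKM in Huh1 and 9.48 and 10.5 RPKM in Huh7. Both inhibitors were higher in Huh7, as was FURIN, which activates precursors of membrane-type MMPs and ADAMs. FURIN had 32.6 and 31.2 RPKM in Huh1 and 103 and 79.6 RPKM in Huh7. PCSK5, from the same list of protease activation and inhibition, was lower in Huh7, with 18.1 and 15.6 RPKM in Huh1 and 5.91 and 5.14 RPKM in Huh7. In limma, 4 of 6 tested genes of this list were higher and 1 lower in Huh7, against 39.1% and 28.7% of all genes tested.

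The substrates were also unevenly distributed. VCAN, which encodes the proteoglycan versican, had 0.0140 and 0.0685 RPKM in Huh1 and 21.8 and 31.7 RPKM in Huh7. COL1A1, a chain of type I collagen, had 0.115 and 0.122 RPKM in Huh1 and 107 and 125 RPKM in Huh7. The basement membrane collagen COL4A2 was the other way round, with 11.9 RPKM in each Huh1 library and 0.172 and 0.208 RPKM in Huh7. FN1 was also lower in Huh7, with 2461 and 2157 RPKM in Huh1 and 532 and 610 RPKM in Huh7.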
